A study of Mus musculus with 24 samples.

Results

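The cytosolic ribosomal protein genes encode the proteins that, with ribosomal RNA, make up the large (60S) and small (40S) subunits of the ribosome. They were taken by symbol, as every Rpl or Rps gene with a number and at most an ending of a, l, x or y, together with Rplp0, Rplp1, Rplp2 and Rpsa and without Rps27l. The rule used no measured value and gave 80 of the 21671 genes listed, 49 of the large and 31 of the small subunit. Symbols of another form (such as Fau, Rpl36al, Rpl22l1, Rpl7l1 and the entry for Rps3a) are outside it.

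Ribosomal protein mRNAs are among the most abundant of a cell, and many begin with a run of pyrimidines that places their translation under control of mTOR. Free ribosomal proteins, first of all Rpl5 and Rpl11 bound to 5S rRNA, can hold the ubiquitin ligase Mdm2 and so stabilise p53. Mature splenic lymphocytes are mostly quiescent cells with little ribosome production, which increases when they are activated.

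RNA was sequenced from spleens of C57/Bl6 mice aged 8 weeks. B cells were enriched with magnetic beads against the surface protein B220, and the cells left over are called non-B cells. Mice were Trp53+/+ or Trp53-/-, the latter lacking functional p53 in every cell, and were either unstressed (mock) or killed 4 h after whole-body ionizing radiation (IR) at 7 Gy. Each cell type and treatment had 4 Trp53+/+ and 2 Trp53-/- samples, 24 in all. Non-B cells were the cells that passed through the column on which B cells were held, so B and non-B samples came from the same spleens, although the labels do not say which belong together. Within a cell type, the study's methods give the samples of a group as separate mice. Values are RPKM, the reads per kilobase of gene and per M (mega) reads on exons, and differences are given as log2 fold changes of RPKM + 0.5 with their standard error, which understates changes at low levels. A member rose or fell where limma's test gave an adjusted p under 0.05, adjusted by Benjamini-Hochberg over all genes tested.

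Depth, estimated from the steps between low RPKM values, lay between 4.71 and 10.93 M reads. The Trp53+/+ irradiated B cell samples were the shallowest group (4.71 to 7.60 M reads), and their replicates 1 and 2 stood apart, with a mean RPKM of olfactory and vomeronasal receptor genes, silent in lymphocytes, of 0.219 and 0.305 against at most 0.168 elsewhere. By the percentage of these receptor genes with a value above 0, these 2 samples (36.7% and 47.2%) and irradiated Trp53+/+ non-B replicates 1, 3 and 4 (24.6%, 51.3% and 35.8%) stood apart from the others, which had at most 15.9%. Trp53 was at 44.8 to 47.9 RPKM in unstressed Trp53+/+ B cells and at 21.6 and 21.7 in the Trp53-/- ones, so that reads from the locus were fewer but not absent. The p53 target Cdkn1a rose by a log2 of 5.83 in Trp53+/+ B cells, and all 7 p53 targets listed rose there. B cell markers summed to 1068 to 1246 RPKM in the unstressed Trp53+/+ B samples and to 356 to 572 in the non-B samples, so that the non-B samples also held B cell RNA. T cell markers summed to 74.1 to 86.6 and 497 to 713 RPKM, respectively. In bulk RNA, fewer cells of a type and less RNA per cell cannot be told apart.

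RefSeq promoters (GRCm38.p6) were matched for 59 members with 70 start sites. Windows from 15 bases before each start to 15 from it on are shown for members whose response to IR is described in detail, and for Rps6, Rplp2 and Rpl28 as members with a pyrimidine run across the start. They are on the strand of the gene, with the longest run of C or T in capitals. The windows lie at chr10:23787195-23787224 (-) for Rps12, chr7:118116133-118116162 (-) for Rps15a, chr14:24490663-24490692 (+) for the first start of Rps24, chr4:136053379-136053408 (-) for Rpl11, chr17:24720048-24720077 (+) for Rps2, chr7:24884577-24884606 (+) for the first start of Rps19, chr4:86857353-86857382 (-) for Rps6, chr7:141447636-141447665 (+) for Rplp2 chr7:4792950-4792979 (+) for Rpl28, chr3:90213634-90213663 (-) for Rps27 and chr3:130730323-130730352 (-) for 1 of the 2 starts of Rpl34.
Rps12: taccgtcatgcggccaccgccggCCTTTTC
Rps15a: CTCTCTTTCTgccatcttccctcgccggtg
Rps24: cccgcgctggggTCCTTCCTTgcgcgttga
Rpl11: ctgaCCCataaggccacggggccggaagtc
Rps2: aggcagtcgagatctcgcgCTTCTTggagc
Rps19: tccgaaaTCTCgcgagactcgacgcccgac
Rps6: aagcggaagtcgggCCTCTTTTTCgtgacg
Rplp2: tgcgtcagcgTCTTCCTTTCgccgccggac
Rpl28: ccgcctctcgtgTCTCTCTTTCCgtctccg
Rps27: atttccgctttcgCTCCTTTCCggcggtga
Rpl34: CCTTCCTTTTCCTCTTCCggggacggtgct

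A run of at least 7 pyrimidines, searched on the strand of the gene only, was in 33 of the 70 member windows (47.1%) and in 18.6% of all 32851 promoters. A C at the start itself followed by 4 or more pyrimidines was in 13 member windows (18.6%) against 2.51% of all promoters. Among the members printed, Rps6, Rplp2, Rpl28, Rps27, Rpl34 and Rps24 have a run of this length across the start. The longest run of Rps15a ends before the start, but another run of at least 7, in lower case, crosses it. The run of Rps12 begins downstream of the start. In the windows of Rpl11, Rps2 and the first start of Rps19 no run of this length was found.

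Most members were among the most abundant mRNAs of these cells. The median of their mean RPKM over the 24 samples was 84.8, against 3.94 for all genes, and 30 of the 99 genes at 100 RPKM or more were members. Among the highest means were those of Rplp1 of the ribosomal stalk (159 RPKM) and Rpl8 (155). RPKM above 1 in every sample was found for 76 of the 80.

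At the other end stood the tissue-restricted paralogs Rpl10l, Rpl39l and Rpl3l, known from testis or muscle, with means of 0.0150, 0.565 and 1.5 RPKM. Rpl10l was listed at 0 in 22 of the 24 samples. Rpl26 and Rpl34, which belong to every ribosome, were also low, at 0.315 and 5.98 RPKM, and Rpl26 was listed at 0 in 5 samples. Unique words of 50 bases were counted in the transcript with the longest coding sequence of each member. Of these words, 18.2% were unique in the genome for Rpl26 and 36.0% for Rpl34, the others recurring at further loci such as processed pseudogenes. Over the 78 members with a transcript model the unique share ranged from 0.338% (Rps27) to 100%, with a median of 35.5%. Its median was 53.8% in the 14 members with a mean under 50 RPKM and 23.1% in the 29 at 100 RPKM or more. The Spearman correlation of unique share and mean RPKM over the 78 was -0.245. The study's methods give default settings for alignment and name no counting option that would include reads matching several loci. Levels of members with many copies are therefore uncertain, and the part of this in the low values was not tested.

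**Figure D1:**
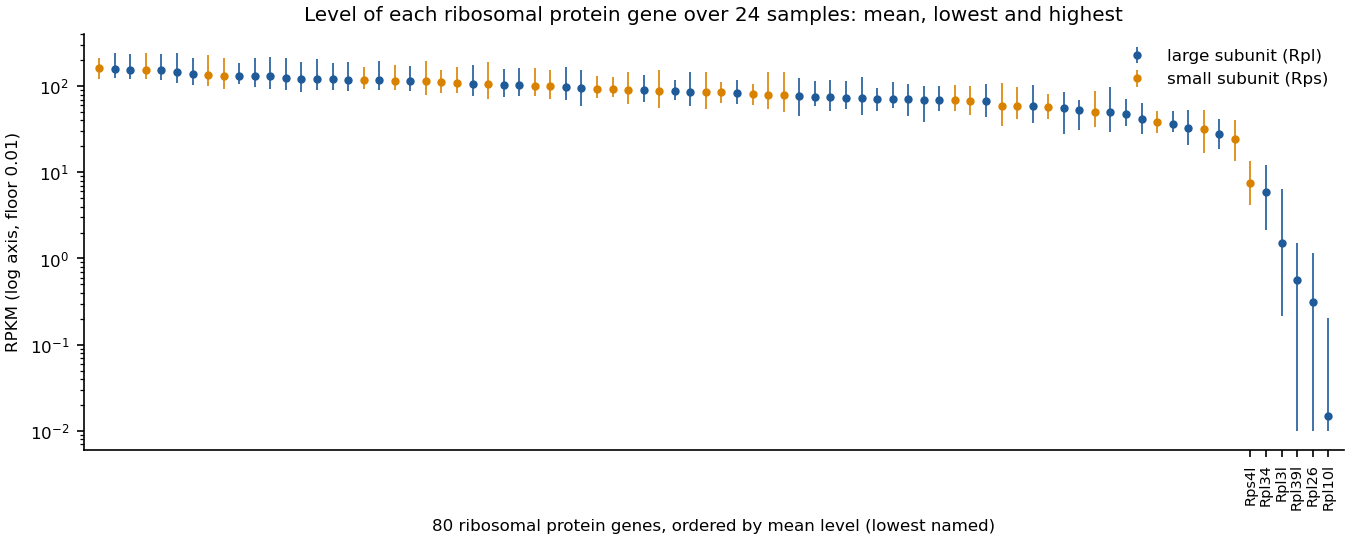
RPKM of the 80 ribosomal protein genes on a log axis, ordered by level, with a point for the mean over the 24 samples, a line from the lowest to the highest sample (values under 0.01 drawn at 0.01) and colours for the subunits, and with names for the members of lowest mean. Most members lie near the median of their means of 84.8 RPKM, and Rpl10l, Rpl26, Rpl39l and Rpl3l lie far below.

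Summed over the 80 members, unstressed Trp53+/+ B cells held 6969 ± 839 RPKM (SD, n = 4) and non-B cells 5581 ± 336 (SD, n = 4). After IR the sum was 8706 ± 1518 (SD, n = 4) in B cells with p53 and 5406 ± 375 (SD, n = 4) in the non-B cells. The 4 irradiated B samples held 9284, 10538, 7897 and 7105 RPKM, at depths of 6.14, 4.71, 7.03 and 7.60 M reads. The shallower the sample of this group, the higher was its sum.

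Because the authors kept 1 read of each set of duplicates, a short and abundant transcript can gain only so many reads. The most abundant gene of each sample reached 157 to 307 RPKM, which corresponds to 1.45 to 1.92 reads per base of gene model. Members averaged 0.784 ± 0.0509 reads per base in unstressed and 0.675 ± 0.0398 in irradiated Trp53+/+ B cells (SD, n = 4 each). Thus RPKM of the members rose with IR while their reads per base fell, and depth fell with them. The part of depth and of duplicate removal in the differences below was not tested beyond the refits given with each of them.

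**Figure D2:**
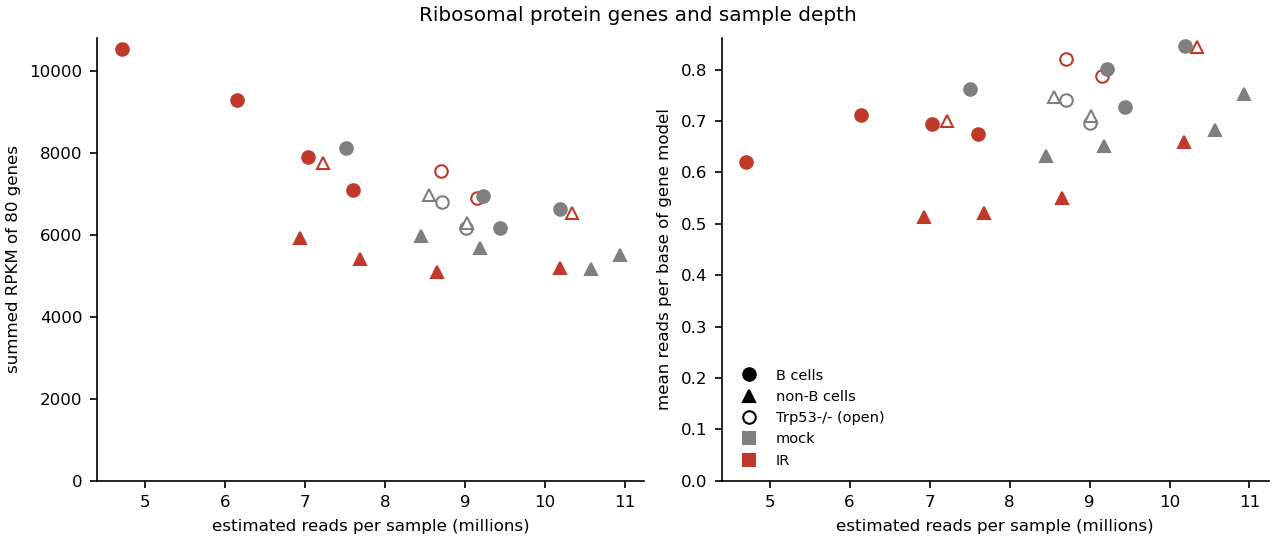
Summed RPKM of the 80 members and their mean reads per base against the estimated reads per sample, with 1 point per sample, circles for B and triangles for non-B cells, open symbols for Trp53-/- and red for IR. The 4 irradiated Trp53+/+ B cell samples lie at low depth, between 7105 and 10538 RPKM.

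The first comparison asked how the members responded to IR in B cells with p53. In Trp53+/+ B cells 39 of the 78 members tested rose and 0 fell, where 25.4% of all genes rose and 25.8% fell. Their median log2 fold change was 0.31, against 0.01 for all genes, and 77 of the 78 were above 0. All irradiated samples lay above all unstressed ones in 15 of the 80 members, against 21.9% of all genes. Both subunits took part, with 23 of 47 large-subunit and 16 of 31 small-subunit genes higher. The changes were small, and with a log2 fold change above 0.58 required as well, 2 members rose, Rps19 and Rpl34, and 0 fell, where 12.5% of all genes rose and 12.2% fell. In the same samples 5 of 8 erythroid markers fell (summed level 47.0 to 115 RPKM before and 18.7 to 32.3 after IR). Of 10 T cell markers 4 fell (74.1 to 86.6 and 48.5 to 83.2). Of 9 B cell markers 3 fell and 1 other rose (1068 to 1246 and 982 to 1094). The part of these changes in the members' values was not tested.

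The count changed in several refits, for which no share of all genes is given here. With estimated depth as a covariate 5 members rose and 10 fell, with the level of receptor genes as a covariate 16 rose, and without the 2 shallowest irradiated samples 17 rose and the median was 0.10. Depth and IR cannot be told apart fully in this group. Leaving out single samples gave 24 calls (without mock replicate 4) to 61 (without IR replicate 4). Rps12, Rps15a, Rps19, Rps2 and Rpl34 were called higher in each of the 25 alternative fits and thresholds tried.

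Rps19, a small-subunit protein and the gene most often mutated in Diamond-Blackfan anaemia, had a log2 fold change above 0.58 and groups that did not overlap (ENSMUSG00000040952.9, chr7:25669390-25674825 on mm9, plus strand, 72.4% of 50-base words unique). It was at 44.7, 47.7, 48.2 and 40.1 RPKM in unstressed Trp53+/+ B cells and at 77.8, 86.9, 69.5 and 71.3 after IR. All irradiated samples were above all unstressed ones, with a gap wider than the range of the unstressed group. The log2 fold change was 0.75 ± 0.08 (adjusted p = 1.2e-05).

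Rps12, a protein of the small-subunit head (ENSMUSG00000061983.5, chr10:23504990-23507015, minus strand), was at 53.5, 53.9, 57.5 and 48.0 RPKM before and at 74.5, 77.9, 81.3 and 77.1 after IR. The groups did not overlap, and the irradiated samples were close to each other in spite of their depths. Its log2 fold change was 0.54 ± 0.06 (adjusted p = 9.9e-06). Only 1.92% of its 50-base words were unique, so its level is uncertain.

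Rps15a (ENSMUSG00000008683.10, chr7:125247892-125259700, minus strand), also of the small subunit, was at 23.8, 22.0, 21.0 and 20.7 RPKM in unstressed and at 28.2, 31.2, 30.4 and 29.1 in irradiated samples. The lowest irradiated sample stood above the highest unstressed one. The log2 fold change was 0.44 ± 0.07 (adjusted p = 0.00014).

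Rps2, at the entry of the mRNA channel of the small subunit (ENSMUSG00000044533.9, chr17:24855061-24858874, plus strand), was at 105, 109, 128 and 101 RPKM before and at 150.2, 168, 151 and 145 after IR. The groups were again apart, and the fold change was a log2 of 0.47 ± 0.08 (adjusted p = 0.00041). Its exons overlap the RNA genes Snhg9 and Snora64, whose reads were not separable by strand. Rpl34 of the large subunit (ENSMUSG00000062006.6, chr3:130429749-130433316, minus strand) was at 4.58, 5.20, 3.30 and 6.30 against 7.34, 5.95, 10.5 and 11.3 RPKM, groups that overlap, and had the largest log2 fold change of the called members, 0.78 ± 0.22 (adjusted p = 0.010).

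**Figure D3:**
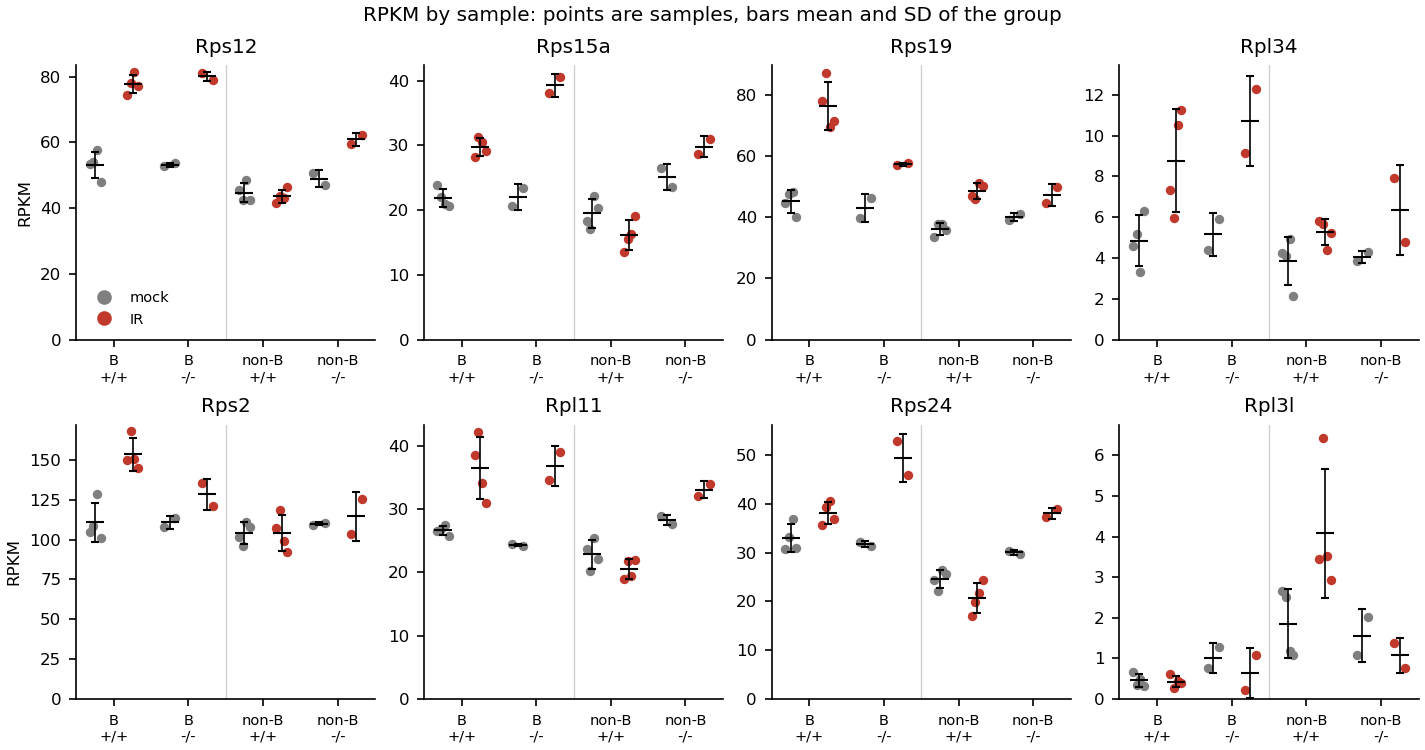
RPKM of 8 members in each of the 24 samples, by cell type, genotype and treatment (grey for mock, red for IR), with 1 point per sample and bars for the mean and SD of the group. Rps12 and Rps15a were higher after IR in B cells of both genotypes, and in Trp53+/+ non-B cells their irradiated and unstressed samples overlap.

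Of the mRNAs of 5 proteins linked to Mdm2, 2 passed the threshold, and all 5 log2 fold changes were above 0. Differences between these genes were not tested. Rpl11, a binding partner of Mdm2 (ENSMUSG00000059291.9, chr4:135584180-135609343, minus strand), was at 26.5, 26.8, 27.5 and 25.8 RPKM before and at 38.6, 42.2, 34.1 and 30.9 after IR, without overlap (log2 0.44 ± 0.09, adjusted p = 0.0010). Rpl23 had a log2 fold change of 0.38 ± 0.08 (adjusted p = 0.0020). Rpl5, the partner of Rpl11 in the 5S particle, had 0.19 (adjusted p = 0.42), Rps7 0.24 (adjusted p = 0.26) and Rpl26 0.67 at its very low level (adjusted p = 0.065). With depth as a covariate neither Rpl11 nor Rpl23 was called, and Rpl5 was called lower.

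Of the stalk proteins, which recruit elongation factors to the ribosome, Rplp1 had a log2 fold change of 0.36 (adjusted p = 0.023), while Rplp0 with 0.33 and Rplp2 with 0.21 did not pass (adjusted p = 0.074 and 0.11). Rplp0 was at 114, 122, 146 and 103 RPKM before and at 166, 194, 137 and 117 after IR, and the high values were those of the 2 shallowest samples. Rpsa, also known as the laminin receptor, had 0.31 (adjusted p = 0.036), Rps6, the substrate of S6 kinase, 0.30 (adjusted p = 0.049) and Rpl10 0.29 (adjusted p = 0.024). Each of these 3 and Rplp1 turned negative with depth as a covariate, at -0.10 for Rpsa, -0.12 for Rps6, -0.028 for Rpl10 and -0.071 for Rplp1. The smallest called changes were otherwise those of Rps24 (0.21 ± 0.07), Rpl15 (0.28 ± 0.08) and Rps21 (0.30 ± 0.07).

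Further members above the threshold included Rpl10a (0.49 ± 0.09, adjusted p = 0.00062), Rpl41 (0.42, adjusted p = 0.0032), which encodes the shortest protein of the ribosome, and Rpl3 of the peptidyl transferase centre (0.39, adjusted p = 0.0070). Among members that were not called stood Rps14 (0.14, adjusted p = 0.54), Rpl22 (0.17, adjusted p = 0.054), Rps4l (0.19) and, of the X-linked members, Rps4x (0.19), Rpl36a (0.28) and Rpl39 (0.03).

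Rps27, a zinc finger protein of the small subunit, was at 88.3, 86.7, 97.3 and 88.6 RPKM before and at 113, 127, 109.6 and 105 after IR in Trp53+/+ B cells (log2 0.33 ± 0.07, adjusted p = 0.0021). In Trp53-/- B cells it was at 89.9 and 99 before and at 98.5 and 87.7 after IR, where the samples overlap. The test of the difference between genotypes gave 0.35 ± 0.12 (adjusted p = 0.070). Its paralog Rps27l, a p53 target that is no member, went from 36.5, 27.6, 39.2 and 26.7 to 85.8, 89.3, 79.6 and 57.5 RPKM in Trp53+/+ B cells (log2 1.25, adjusted p = 2.5e-05).

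The next comparison asked which changes occurred without p53. In Trp53-/- B cells 9 of 78 members rose and 0 fell, fewer than the 23.0% of all genes that rose, while 17.2% of all genes fell. The median of members was 0.16, with 75 of 78 above 0. The 4 samples were of like depth here, with 9.01 and 8.71 M reads before and 8.70 and 9.15 after IR. Both irradiated samples lay above both unstressed ones in 42 of the 80 members and below them in 1, against 37.7% and 31.2% of all genes. With 2 samples a group the test had less to go on than in Trp53+/+ cells. With a log2 fold change above 0.58 as well, 5 members rose and 0 fell, against 13.1% and 11.2% of all genes. Depth as a covariate gave 26 higher and 1 lower.

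The 9 were Rpl34 (0.99 ± 0.31), Rps15a (0.82 ± 0.09), Rps24 (0.63 ± 0.10), Rps12 (0.59 ± 0.08), Rpl11 (0.58 ± 0.12), Rpl37 (0.52 ± 0.13), Rps19 (0.41 ± 0.12), Rps3 (0.36 ± 0.09) and Rpl22 (0.30 ± 0.10), as log2 fold changes. Rps15a went from 20.6 and 23.4 to 38.0 and 40.5 RPKM, Rps12 from 52.7 and 53.6 to 81.1 and 79.1, and Rpl11 from 24.5 and 24.2 to 34.5 and 39.0. In each of them both irradiated samples were above both unstressed ones. These 3 and Rps24 were called in each of the 24 alternatives tried for this comparison. Of the 39 members that rose in Trp53+/+ and the 9 that rose in Trp53-/- B cells 8 were shared, 20.5% of the first and 88.9% of the second list.

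Called members of Trp53-/- B cells were mostly of lower level than the others. Of members with a mean of 10 to 50 RPKM, 5 of 9 tested rose, of those at 50 to 100 RPKM 3 of 35 (8.57%), and of those at 100 RPKM or more 0 of 30. For other genes, 29.7% rose at 10 to 50 RPKM, 20.8% at 50 to 100 and 7.25% at 100 or more. In Trp53+/+ B cells, by contrast, 17 of the 30 members at 100 RPKM or more rose (56.7%), against 30.4% of other genes of this level.

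**Figure D4:**
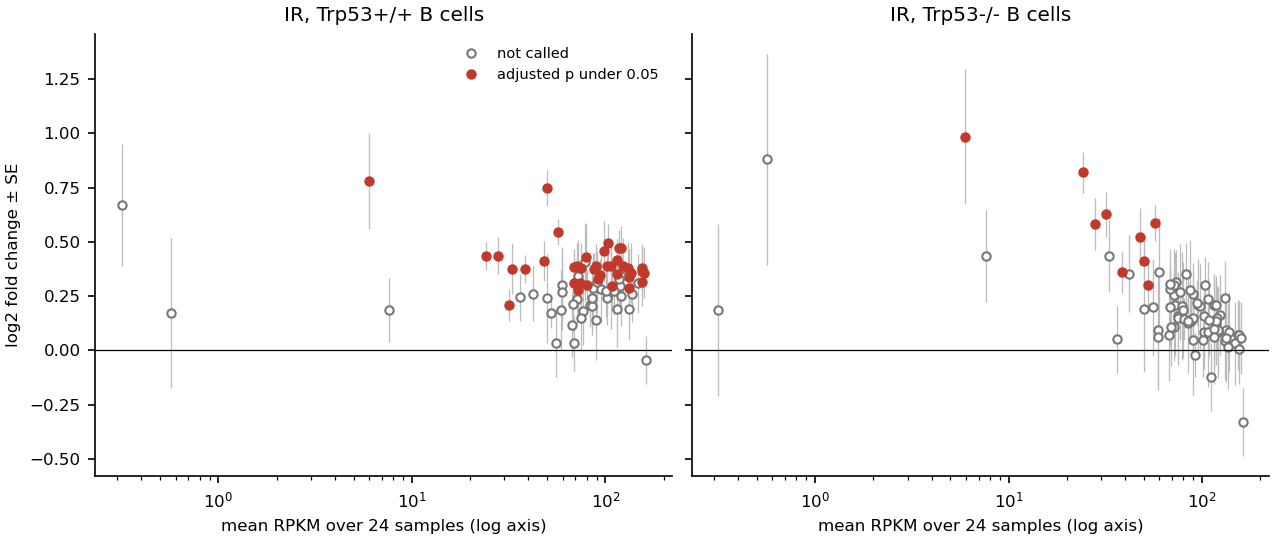
Log2 fold change after IR of each member tested in B cells, with its SE, against its mean RPKM over the 24 samples on a log axis, for both genotypes, filled where the member was called. In Trp53-/- B cells no member at 100 RPKM or more was called, and in Trp53+/+ B cells 17 of 30 were. By the test of the difference between genotypes, 0 of these 30 passed.

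The genotype difference in the response, Trp53+/+ minus Trp53-/-, passed for 2 members, where 8.14% of all genes were higher and 10.6% lower. Rps24, another gene of Diamond-Blackfan anaemia (ENSMUSG00000025290.9, chr14:25309903-25315368, plus strand), went from 30.8, 33.3, 36.9 and 31.0 to 35.7, 39.3, 40.6 and 36.9 RPKM in Trp53+/+ and from 32.2 and 31.4 to 53 and 45.9 in Trp53-/- B cells. The 2 irradiated Trp53-/- samples were above all others, and the difference was -0.42 ± 0.13 (adjusted p = 0.036). For Rps15a, described above, it was -0.38 ± 0.11 (adjusted p = 0.034). For Rps12 the rise was of like size in both genotypes, with a difference of -0.04 and a 95% interval of -0.27 to 0.18, and for Rps19 it was 0.34 ± 0.14 (adjusted p = 0.13). Above 0.58 in size, 0 members passed, against 6.56% of all genes higher and 5.43% lower. Neither of the 2 calls was held in every alternative. After quantile normalization 2 members were higher and 0 lower, and after median-ratio scaling 0 passed.

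Unstressed B cells of both genotypes gave 0 called members, with 0 at an unadjusted p under 0.05 in limma and a median of -0.10, while 0.0217% of all genes were higher and 0.0289% lower in Trp53-/- cells. In unstressed non-B cells 0 members passed as well (0.0143% of all genes higher, 0.0285% lower), but 43 of 78 were higher in Trp53-/- cells at an unadjusted p under 0.05 in limma and 0 lower, with a median of 0.25. No share of all genes was taken at this unadjusted threshold, so the 43 cannot be set against the shares given. T cell markers summed to 690.4 and 794 RPKM in the unstressed Trp53-/- and to 497 to 713 in the Trp53+/+ non-B samples, and all 10 T cell markers were above 0 in log2 difference (median 0.31). All 8 erythroid markers (median -1.01) and all 5 platelet markers (median -0.57) were below 0, as were 13 of 14 proliferation genes (median -0.51), with 0 called. The part of cell composition in this was not tested.

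In Trp53+/+ non-B cells, 2 members rose and 1 fell after IR, where 8.72% of all genes rose and 9.94% fell. After median-ratio scaling 2 rose and 0 fell, and after quantile normalization 2 rose and 3 fell. With the level of receptor genes as a covariate, which was high in 3 of the 4 irradiated samples, 0 members passed. The median of members was -0.06. Rps19 went from 33.7, 37.9, 37.7 and 35.9 to 46.9, 46.0, 51.1 and 50.3 RPKM without overlap (log2 0.42 ± 0.07, adjusted p = 0.0018). Rpl3l, a muscle paralog of Rpl3, went from 2.66, 2.52, 1.17 and 1.08 to 3.46, 6.44, 3.51 and 2.93 RPKM (log2 0.98 ± 0.31, adjusted p = 0.048), and Rpl39 from 58.9, 54.9, 55.2 and 59.1 to 38.1, 49.3, 43.2 and 53.6 (log2 -0.32 ± 0.10, adjusted p = 0.048). All irradiated samples were above the unstressed ones for Rpl3l and below them for Rpl39. Of the 3, Rpl3l alone had a log2 fold change above 0.58 in size, as had 5.74% of all genes that rose and 4.11% that fell. Erythroid markers fell alongside, from summed levels of 132 to 357 RPKM to 23.7 to 84.2, and their part in these values was not tested.

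In Trp53-/- non-B cells 0 members were called after IR (4 higher and 0 lower at an unadjusted p under 0.05 in limma), where 0.221% of all genes rose and 0.250% fell, and the median was 0.10. Rps12 went from 50.7 and 47.1 to 59.6 and 62.3 RPKM (log2 0.31 ± 0.09, adjusted p = 0.13). The difference between genotypes passed for 0 members (1 higher and 7 lower at an unadjusted p under 0.05 in limma), where 3.98% of all genes were higher and 3.37% lower, or 3.72% and 2.82% above 0.58 in size. All shares of genes in this paragraph are at an adjusted p. Rps24 was nearest to the threshold, at -0.59 ± 0.18 (adjusted p = 0.067), and was called lower with the replicate number as a block (adjusted p = 0.043). It went from 24.3, 22.1, 26.4 and 25.7 to 17.0, 19.9, 21.7 and 24.4 RPKM in Trp53+/+ and from 30.4 and 29.7 to 37.3 and 38.9 in Trp53-/- non-B cells.

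**Figure D5:**
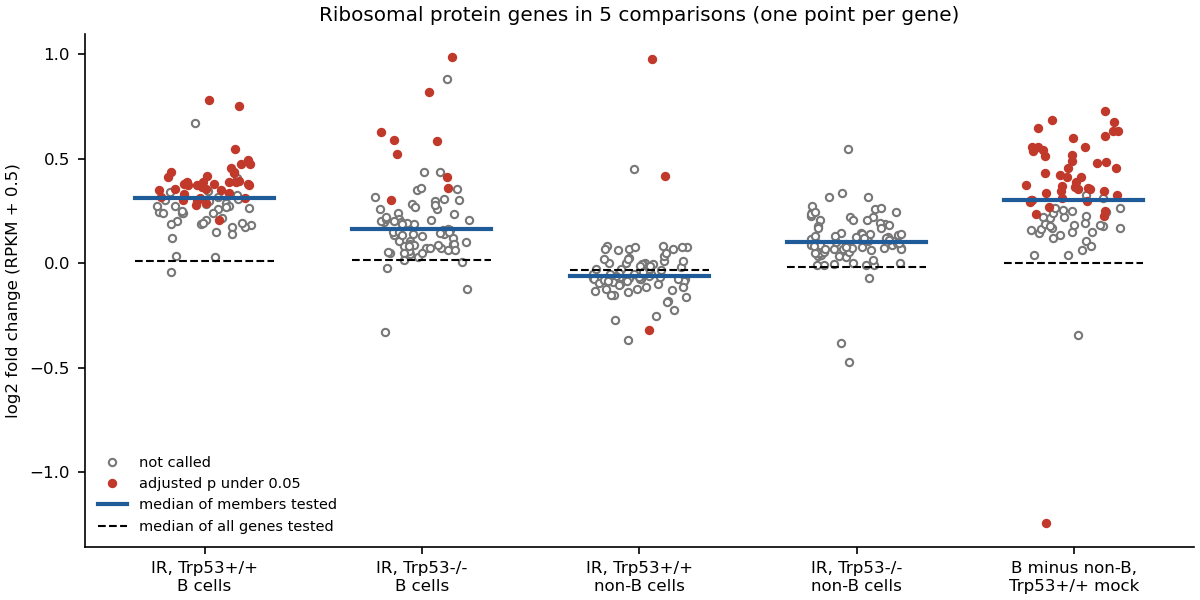
Log2 fold change of every member tested in the 4 responses to IR and in the unstressed difference of cell types, with 1 point per member, filled where the adjusted p was under 0.05, a blue line for the median of members and a dashed one for that of all genes tested. The median of members was 0.31 in irradiated Trp53+/+ B cells, 0.16 in Trp53-/- B cells and -0.06 in Trp53+/+ non-B cells.

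Between unstressed Trp53+/+ cell types, 45 of 79 members were higher in B than in non-B cells and 1 lower, where 17.7% of all genes were higher and 23.3% lower. The median log2 difference was 0.30. Above 0.58 in size, 8 members were higher and 1 lower, against 7.38% and 17.2% of all genes. Rpl35 had the largest, 0.73 ± 0.18 (adjusted p = 0.0033), with 56.4, 56.2, 69.0 and 49.1 RPKM in B and 35.6, 34.8, 33.4 and 34.0 in non-B cells, and its exons overlap Wdr38. It was followed by Rpl27 (0.68 ± 0.15), Rps14 (0.68 ± 0.16), Rps25 (0.64 ± 0.16) and Rps26 (0.63 ± 0.15). For Rpl35 the lowest B sample was above the highest non-B sample.

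Rpl22, which also regulates lymphocyte development, was at 62.3, 60.5, 66.8 and 52.0 RPKM in B and at 42.1, 40.1, 44.0 and 37 in non-B cells (0.56 ± 0.09, adjusted p = 0.00013). The groups were apart, as they were in 41 of the 80 members, where 19.9% of all genes had all B above all non-B samples. Of the 9 listed genes of Diamond-Blackfan anaemia 8 were higher in B cells, among them Rpl5 (0.63 ± 0.16) and Rps24 (0.41 ± 0.10). The smallest called differences were those of Rpl37 (0.27), Rps12 (0.25), Rps9 (0.23) and Rps3 (0.22). Rpl3l was the only member called lower in B cells, at 0.670, 0.335, 0.493 and 0.327 against 2.66, 2.52, 1.17 and 1.08 RPKM (-1.24 ± 0.26, adjusted p = 0.0012).

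The count was 27 higher and 1 lower after median-ratio scaling, 58 higher and 1 lower with replicate number and treatment as a block, and 6 higher and 1 lower with the mean level of receptor genes as a covariate. That level was 0.114 to 0.129 RPKM in unstressed Trp53+/+ B and 0.0652 to 0.0828 in non-B samples. The covariate and cell type therefore cannot be told apart fully here. The 2 cell types differ in composition by design, since non-B cells held T, NK, myeloid, erythroid and platelet markers at higher summed levels, with myeloid markers at 539 to 830 against 158 to 370 RPKM.

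The response of Trp53+/+ cells to IR differed between cell types for 19 of 79 members, all higher in B cells, where 15.4% of all genes were higher and 12.6% lower. Rps15a had the largest difference (0.71 ± 0.14, adjusted p = 0.0014), followed by Rpl11 (0.59 ± 0.13) and Rps12 (0.58 ± 0.09). Above 0.58 stood 2 of them, Rps15a and Rpl11, and 0 members were lower by as much, against 9.88% and 8.90% of all genes. In non-B cells Rps15a was at 18.4, 17.2, 22.1 and 20.4 RPKM before and at 13.5, 15.5, 16.4 and 19.1 after IR, and Rpl11 at 23.6, 20.1, 25.5 and 22.1 before and at 18.9, 21.8, 19.4 and 21.9 after. Both groups of samples overlapped there, unlike in B cells. The smallest called differences were those of Rpl15 (0.38), Rpl23 (0.37) and Rps19 (0.33). Without the 2 shallowest irradiated B samples the count was 8, and with treatment and replicate number as a block, should equal numbers mark the same spleen, it was 42. After median-ratio scaling 7 were higher and 1 lower.

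The other lists of ribosome production and translation are given for the same B cell comparisons. Of 54 genes of ribosome assembly and rRNA processing 52 rose after IR in Trp53+/+ B cells (median 0.65) and 53 in Trp53-/- B cells (median 1.02), and 0 fell in either. Utp20, of the small-subunit processome, had the largest log2 fold change in Trp53+/+ B cells (1.81 ± 0.06), and Rrp12, an export factor of pre-ribosomes, had 1.4 ± 0.06. In Trp53-/- B cells Rrp1b (1.96 ± 0.13) and Rrp12 (1.87 ± 0.09) led, and the smallest called changes were 0.19 (Noc4l) and 0.20 (Utp15) in Trp53+/+ and 0.47 (Nmd3) and 0.57 (Nop10) in Trp53-/- cells. With depth as a covariate 51 and 53 rose, respectively, so these counts hardly moved.

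In Trp53+/+ non-B cells 1 of the 54 rose and 17 fell, with a median of -0.26. These counts moved over 4 refits (median-ratio scaling, quantile normalization, receptor or depth covariate). In them 0 to 1 rose and 0 to 17 fell, with medians of -0.23 to -0.11. The assembly genes rose less in Trp53+/+ than in Trp53-/- B cells, with 30 of 54 lower and 0 higher in the test of the genotype difference. For RNA polymerase I and its factors, which transcribe rRNA, 13 of 20 rose in Trp53+/+ B cells (median 0.37) and 16 in Trp53-/- B cells (median 0.58), with 0 lower. For translation initiation factors, 16 and 19 of 25 rose (medians 0.32 and 0.58), also with 0 lower, and 7 and 20 with depth as a covariate.

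Genes of mitochondrial ribosomal proteins, whose transcripts are less abundant, rose for 38 of 76 in Trp53+/+ B cells (median 0.22) and for 59 of 76 in Trp53-/- B cells (median 0.59). Elongation factors and other mRNAs that start with a pyrimidine run, the class closest to the members, had 9 of 21 higher and 1 lower in Trp53+/+ and 3 higher and 1 lower in Trp53-/- B cells. The one that fell in both was Vim, the intermediate filament vimentin, at -0.86 ± 0.12 and -1.51 ± 0.17. Eef1a1, an elongation factor named here after its values were seen, had 0.42 ± 0.11 in Trp53+/+ and 0.04 ± 0.16 in Trp53-/- B cells. Of 14 proliferation genes 2 rose and 7 fell in Trp53+/+ B cells, and 4 rose and 0 fell in Trp53-/- ones. More members and more genes of the elongation class were thus called higher in Trp53+/+ than in Trp53-/- B cells, and more of the polymerase I, initiation and mitochondrial lists in Trp53-/- B cells. This compares counts from groups of unequal size, and the lists were not tested as sets. By the test of the genotype difference for single genes, 1 of 20 polymerase I genes was higher in Trp53+/+ and 9 lower. Of 25 initiation factors 0 were higher and 6 lower, and of 76 mitochondrial genes 0 and 18. Of 21 genes of the elongation class 1 was higher and 0 lower, and of 78 members 0 and 2. Of all genes 8.14% were higher and 10.6% lower. With depth as a covariate the elongation class had 1 higher and 4 lower in Trp53+/+ and 7 higher and 1 lower in Trp53-/- B cells, so that its order turned, as did that of the members.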

How the data were processed

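RNA depleted of rRNA was made into unstranded TruSeq libraries from 24 samples. Per the study's methods, bases of quality below 20 were masked by the authors, TopHat placed the reads on mm9, duplicates were reduced to 1 read, and genes were counted from UCSC models with featureCounts (1.4.5 per the submitters' processing notes, which give TopHat2 2.0.8). The authors deposited RPKM over exonic reads, rounded to 3 decimals. The deposited unit being RPKM, no count test was run.

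Groups were those of the sample labels. limma 3.58.1 in R 4.3.3 was fitted to log2(RPKM + 0.5) with eBayes and a trend, on the 12 samples of each cell type and on the 16 Trp53+/+ samples. Genes entered with RPKM above 1 in at least 1 Trp53+/+ sample of the fit (13821 in B, 14018 in non-B and 14598 in both). All p-values were adjusted by Benjamini-Hochberg over these genes and are 2-sided, and intervals of differences are those of the fit at 95%. These p-values and intervals set each group difference against the spread between samples. In the fit of the 16 Trp53+/+ samples, B and non-B samples of the same spleens were treated as independent.

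Depth was taken as the number of reads at which low RPKM times exonic length (GENCODE vM1 on NCBIM37, the assembly of mm9) came nearest to whole reads. For 59.7% to 76.3% of these values the nearest whole read was at most 0.1 away (20% if they were spread evenly), so depths are approximate and a count test on recovered reads was not made. Unique words were counted on the same assembly. Scripts used Python 3.11.15 with numpy 2.4.6, pandas 2.3.3 and matplotlib 3.10.9, and the limma fits were tested on simulated data.

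The members and all gene lists were chosen with earlier results of these data known. Named members were the called ones of largest and smallest fold change in each comparison, those of high and lowest level, and those with links to p53, the stalk, the X chromosome or paralogs. Samples of the same number were checked for shared deviations over genes. In Trp53+/+ mice, mock and IR correlated at r = 0.16 to 0.32 in non-B cells and at 0.01 to 0.09 in B cells. B and non-B samples of the same treatment correlated there at -0.10 to 0.35. No pairing entered the main fits, and a block of numbers was used among the alternatives only. Alternatives were other pseudocounts, filters, scalings and thresholds, no trend, a replicate block, covariates for receptor genes (pseudocount 0.01) and depth, a correction for an assumed 2 start positions per base, and fits without single samples or the 2 shallowest. The covariate for depth, the correction, the fit without the 2 shallowest samples, the block of treatment and replicate number across cell types and the crossed block were chosen after seeing the data. No 2 samples held identical values. Single genes that the rules would name are not reported here.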

Additional observations from a re-analysis of the deposited data

Results flagged for a closer look

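In groups of 4 samples, 5 of 172 tests found a sample far from the other 3, where chance gives about 1 in 20. All were in Trp53+/+ non-B cells. Rpl27 was at 48.9 RPKM in unstressed replicate 1 against 38.3 to 39.9 in the others. After IR, Rpl3l was at 6.44 in replicate 2 (others 2.93 to 3.51), Rps25 at 34.6 in replicate 3 (others 40.5 to 41.3), Rps4l at 10.4 in replicate 1 (others 4.74 to 5.68) and Rps6 at 99.5 in replicate 2 (others 82.8 to 85.1).

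Responses to IR that differed between genotypes in B cells, by the test of the difference, were those of 2 members, Rps15a (-0.38) and Rps24 (-0.42). Between B and non-B cells of Trp53+/+ mice 19 members differed, and the log2 differences of those named were 0.71 for Rps15a, 0.59 for Rpl11, 0.58 for Rps12, 0.45 for Rpl3, 0.42 for Rpsa, 0.39 for Rplp2, 0.38 for Rpl15, 0.37 for Rpl23 and 0.33 for Rps19.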

How the results depend on the processing

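Counts are of members called, in both directions unless split. The shares of all genes called that are given above are those of the main fit. Counts from the refits therefore cannot be set against them. The IR response of Trp53+/+ B cells (39) gave 17 at an adjusted p under 0.01, 16 with the receptor covariate, 15 with depth as a covariate, 25 with the correction for start positions and 17 without the 2 shallowest samples. That of Trp53-/- B cells (9) gave 22 after quantile normalization, 27 with the depth covariate and 14 without the 2 shallowest. The genotype difference in B cells (2) gave 0 at an adjusted p under 0.01, without the expression filter, after median-ratio scaling, without a trend and with the correction, 1 with the replicate block and without the 2 shallowest, 3 with the receptor covariate and 6 with the depth covariate. Trp53+/+ non-B cells (3) gave 1 at an adjusted p under 0.01, without the filter, without a trend and when fitted alone, 2 with a pseudocount of 0.1 and with median-ratio scaling, 5 after quantile normalization, 0 with the receptor covariate and 9 with the depth covariate. The genotype difference in non-B cells (0) gave 1 with the replicate block (Rps24) and 2 with crossed numbers in Trp53-/- cells (Rps24 and Rpl3l). The unstressed difference of cell types (46) gave 22 at an adjusted p under 0.01, 28 after median-ratio scaling and 7 with the receptor covariate. The cell type difference in the response (19) gave 6 at an adjusted p under 0.01, 8 after median-ratio scaling, 29 with the receptor covariate, 11 with the correction, 8 without the 2 shallowest and 42 with treatment and replicate number as a block.

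With the replicate block, the fit of Trp53+/+ non-B cells left 2 higher and 1 lower, and B cells, where numbers share nothing else, had 45. Mock and irradiated samples came from different mice, so this block pairs no animals.

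The median of members turned to -0.10 in Trp53+/+ B cells with the depth covariate (Rpl10 -0.028, Rplp1 -0.071, Rps6 -0.12, Rpsa -0.10). That of the genotype difference in B cells turned to -0.013 after quantile normalization, -0.0075 with the receptor covariate, -0.28 with depth and -0.052 without the 2 shallowest, and that of Trp53-/- non-B cells to -0.021 without IR replicate 2 (0.22 without IR replicate 1). The cause was not tested.

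Without single samples, counts ran from 24 to 61 and 4 to 13 (B cells, Trp53+/+ and Trp53-/-), 0 to 2 (their difference), 1 to 6 and 0 to 0 (non-B cells), 0 to 1 (their difference), 0 to 0 (both unstressed genotype comparisons), 23 to 52 (cell types) and 12 to 42 (their responses). Of 59 named calls, 40 were lost in at least 1 setting other than these. Genes at or near the limit of reads per base, 2 samples a group and near-identical copies limit what depth can show.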
